A study of Mus musculus with 2 samples.

Results

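A set of 9 genes of interleukin signalling in T cells was compared between memory T helper 2 (Th2) cells that made interleukin-5 and memory Th2 cells that did not. They were chosen by name: the Janus kinase genes Jak1, Jak2 and Jak3, the transcription factor genes Stat5a, Stat5b and Stat6, and the feedback inhibitor genes Socs1, Socs2 and Cish. Every probe set (a group of short probes that together report a transcript) whose only gene symbol in the platform annotation was one of these was taken, which gave 20 probe sets for 9 of the 18193 genes on the array. A further 2 probe sets that carry the symbol of Jak3 together with that of a neighbouring gene were left out.

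The CD4 T cells came from spleens of BALB/c mice with the DO11.10 T cell receptor transgene, which recognises an ovalbumin peptide, and both groups share this origin. They were stimulated with the peptide for 6 days in 25 U/ml IL-2 and 100 U/ml IL-4, then moved into BALB/c nu/nu mice, athymic hosts that lack most T cells of their own but keep their other blood cells. Memory cells were taken from the host spleens 30 days later and sorted into an IL-5+ and an IL-5- fraction, and RNA of each was hybridised to 1 Affymetrix array. Ages, the number of hosts, any pooling and the way IL-5 was detected are not stated in the labels. With 1 array per group there is no replicate and no test, so every difference below describes these RNA samples only.

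Signals are linear intensities in arbitrary units, and each comparison is given as a log2 ratio, IL-5+ over IL-5-. Signals under 36.3, the level that 40% of all signals do not exceed, were raised to that floor before the ratio was taken. A gene with several probe sets is represented by the brightest. The available error is the disagreement between probe sets of the same gene, a standard deviation (SD) of the log2 ratio of 0.55 at mean signals from 36.3 to 112.8, 0.37 from there up to 500 units, 0.21 from 500 to 2000 and 0.13 above 2000. This error compares only probe sets of a gene that lie in the same signal range, so disagreement between its bright and dim probe sets is left out. It also leaves out variation between cell preparations. Among the 13133 genes above the floor on 1 or both arrays the median log2 ratio was -0.048, and a difference of 2-fold or more was reached by 2.85% on the higher and by 4.01% on the lower side in IL-5+ cells. The sorting marker followed the labels, with Il5 signals of 37085 (IL-5+) and 67.4 (IL-5-). All 8 markers fixed for CD4 T cells were above the floor on both arrays, Cd4 itself at 454.5 and 471, with a median log2 ratio of -0.25 over the list.

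Cytokine receptors have no kinase activity of their own and rely on Janus kinases bound to their tails. Receptors of the IL-2 family pair JAK1 with JAK3 and act mainly through STAT5A and STAT5B, whereas the IL-4 receptor recruits STAT6, which drives Gata3 and Th2 differentiation. Phosphorylated STATs enter the nucleus and also switch on Cish, Socs1 and Socs2, whose proteins bind receptors or kinases through an SH2 domain and limit further signalling. Transcripts of the inhibitors are therefore commonly read as targets of the pathway, while those of kinases and STATs report only the supply of components, not their phosphorylation.

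The inhibitors held both of the largest differences, and among the kinase and STAT genes that of Stat5b, 1.51-fold lower in IL-5+ cells, was the largest. Socs2 was 2.22-fold lower in IL-5+ cells and Socs1 1.89-fold lower, while Cish, the third inhibitor, was at nearly the same signal on both arrays. Of the 9 members, 1 (Socs2) was at least 2-fold lower, where 4.01% of all measured genes were, and 0 were at least 2-fold higher (2.85% of all). Among the 5813 genes with a mean signal of 500 or more, as all members but Jak3 have, the shares were 1.89% lower and 1.84% higher. The median log2 ratio of the members was -0.10, with 7 below 0 and 2 (Jak2 and Stat6) above it, and 55.5% of all measured genes lay below 0.

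**Figure D1:**
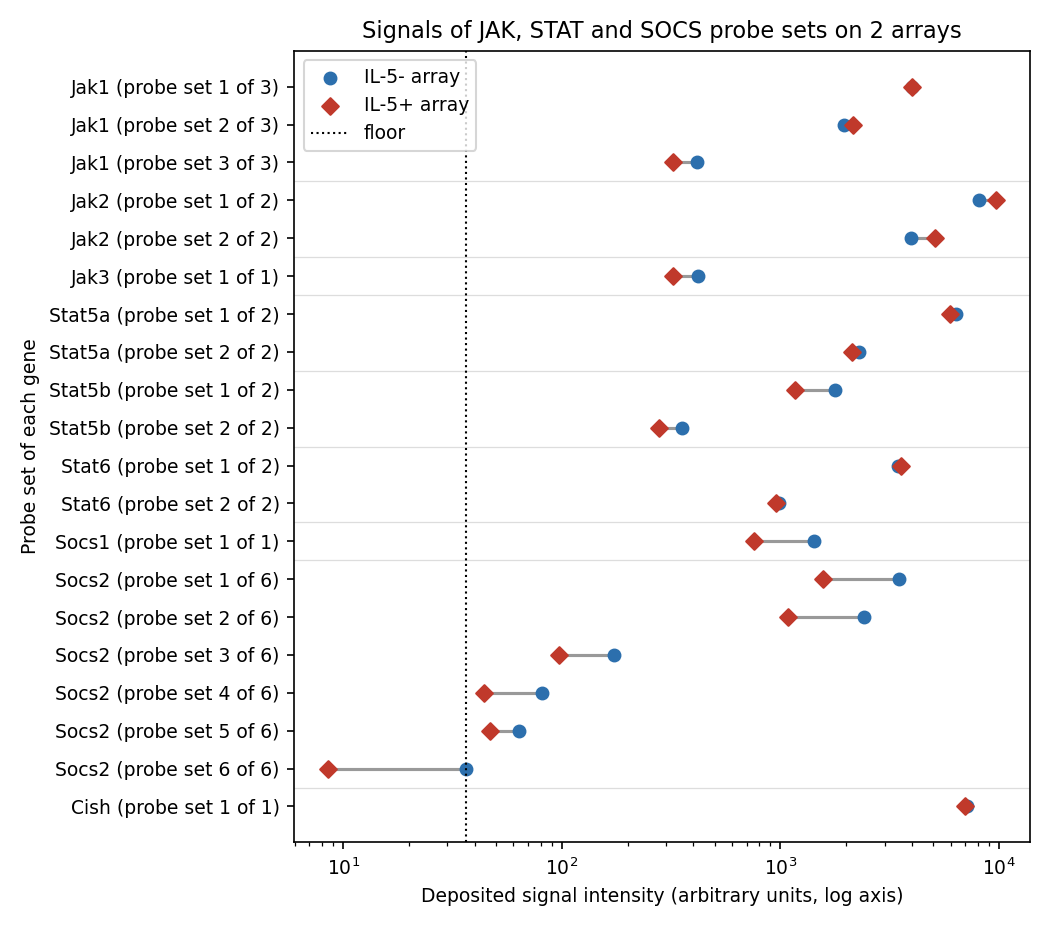
Deposited signal (horizontal log axis, arbitrary units) of each of the 20 member probe sets in IL-5+ cells (red diamonds) and IL-5- cells (blue circles), joined by a line, with the floor of 36.3 dotted. All 6 Socs2 probe sets and the Socs1 probe set have the IL-5+ signal to the left, both Jak2 probe sets have it to the right, and the Cish symbols overlap (6994 and 7149).

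Among the kinases, Jak2 was the member with the highest ratio. JAK2 serves the receptors of interferon gamma, IL-3, GM-CSF and IL-5 itself. Its brighter probe set had signals of 9717 in IL-5+ and 8093 in IL-5- cells, a log2 ratio of 0.26. Its other probe set gave 5101 and 3947, a log2 ratio of 0.37. Both probe sets were higher in IL-5+ cells, by 1.97 and 2.77 times the SD between probe sets at that brightness. Of genes with a mean signal above 2000, 15.9% had a ratio as high as that of Jak2 or higher.

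Jak1, the kinase shared by the IL-2, IL-4 and interferon receptors, had signals of 3990 and 4001 at its brightest probe set (log2 ratio -0.0040). The other probe sets stood at 2140 and 1961 (0.13) and at 322 and 417 (-0.37). They differ in sign, and each ratio was at or near 1 SD between probe sets or under it. Jak3, which binds the common gamma chain of the IL-2 family receptors, had 1 probe set, at 324 in IL-5+ and 420.5 in IL-5- cells. Its log2 ratio of -0.38 was about as large as the SD of 0.37 at that brightness, and 27.1% of genes in that signal range had a ratio as low.

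Stat6, the factor that carries the IL-4 signal, had signals of 3561 and 3441 at its brighter probe set and 950 and 983 at the other. The log2 ratios were 0.050 and -0.049, opposite in sign and both under the SD between probe sets. Stat5a had signals of 5957 and 6384 at its brighter probe set and 2116 and 2299 at the other, with log2 ratios of -0.10 and -0.12. These too lay under the SD of 0.13.

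Stat5b was lower in IL-5+ cells at both of its probe sets. The brighter had signals of 1170 in IL-5+ and 1771 in IL-5- cells, a 1.51-fold difference (log2 ratio -0.60), which is 2.91 times the SD between probe sets at that brightness. The dimmer had signals of 277 and 354 (-0.35, 0.96 times the SD). Stat5a and Stat5b are near-identical neighbouring genes on chromosome 11, with Stat3 beside them, and encode proteins that can stand in for each other in part. Whether their probes bind the transcript of the other gene was not tested. At their brighter probe sets the log2 ratio of Stat5b was 0.50 below that of Stat5a, a difference that could not be tested. Stat3, the neighbour on the other side of Stat5a, was higher in IL-5+ cells at all 4 of its probe sets, from 0.30 to 0.56.

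Socs2 encodes an SH2 protein best known for restraining growth hormone signalling through STAT5B, and it is induced through STAT5. Its brightest probe set had signals of 1566 in IL-5+ and 3480 in IL-5- cells. The next had signals of 1086 and 2418. Both gave a log2 ratio of -1.15, which was 8.61 and 5.62 times the SD between probe sets at their brightness.

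The other Socs2 probe sets were dim and ran the same way. They stood at 97.2 against 172.6 (log2 ratio -0.83), at 44.3 against 81.1 (-0.87) and at 47 against 64 (-0.45). The sixth was under the floor in IL-5+ cells (8.5) and just above it in IL-5- cells (36.5), so that its ratio with the floor is close to 0. The IL-5+ signal was the lower at all 6 probe sets, and the SD over the 5 measured on both arrays was 0.29. That SD spans bright and dim probe sets. It is larger than the 0.13 and 0.21 by which the ratios of the brightest and the next were divided. Of 2411 genes with a mean signal above 2000, 23 (0.95%) had a ratio as low as that of Socs2 or lower.

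Socs1 encodes a potent inhibitor of JAK1, JAK2 and TYK2 that is induced by interferon gamma, IL-4 and IL-2. Its only probe set had signals of 759 in IL-5+ and 1431 in IL-5- cells, a log2 ratio of -0.92, or 4.46 times the SD between probe sets at that brightness. Of 3402 genes with a mean signal from 500 to 2000, 95 (2.79%) had a ratio as low or lower. With a single probe set, no second measurement of Socs1 exists on these arrays.

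Cish, the STAT5 target that encodes CIS and restrains T cell receptor and IL-2 signalling, had signals of 6994 in IL-5+ and 7149 in IL-5- cells. Both lie above the 97th percentile of their array (97.2 and 97.3), and the log2 ratio of -0.031 was 0.24 times the SD between probe sets. The log2 ratio of Socs2 was 1.12 below that of Cish and that of Socs1 0.88 below it. The feedback inhibitors thus did not differ between the fractions by a common amount, although with 1 array per group the difference among them has no test.

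**Figure D2:**
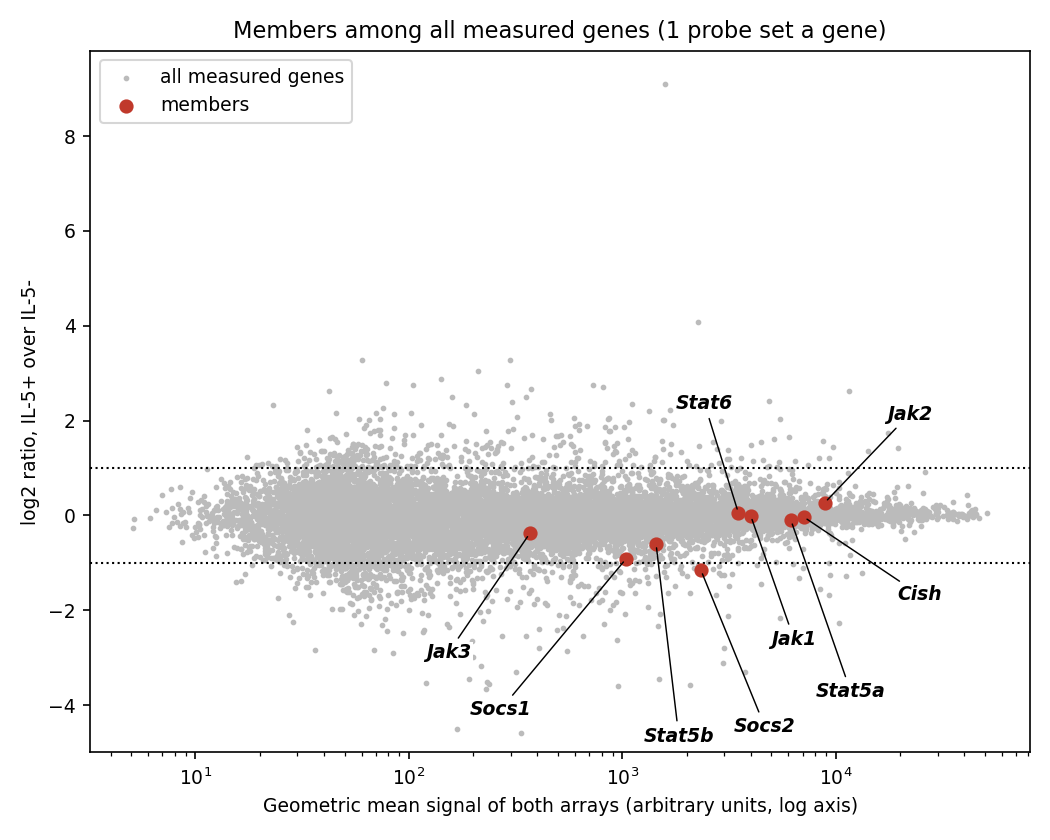
log2 ratio (IL-5+ over IL-5-) of each measured gene at its brightest probe set against the geometric mean signal of both arrays (log axis), with all 13133 genes in grey, the 9 members in red and dotted lines at a 2-fold difference. Socs2 lies below the lower line at -1.15 and Socs1 just above it at -0.92, while Jak1, Jak2, Stat5a, Stat6 and Cish lie within the dense band at bright signals; the highest grey point is Il5.

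The rest of the SOCS family placed Socs1 and Socs2 beside Socs3. Socs3, an inhibitor induced by IL-6 and interferons, had signals of 496 in IL-5+ and 1772 in IL-5- cells (log2 ratio -1.84), and its 3 probe sets ranged from -1.84 to -1.33. The brightest of the other family members, Socs5, had signals of 1907 and 1391 (0.45). Socs4, Socs6 and Socs7 were between -0.082 and 0.020 at their brightest probe sets. Their probe sets above the floor on both arrays ranged from -0.082 to 0.41, from -0.18 to 0.020 and from -0.67 to 0.37. Of the 8 genes of the family, Cish included, 2 were at least 2-fold lower and 0 higher, where 4.01% and 2.85% of all measured genes were. The family's median was -0.057. Among the other kinase and STAT genes, 4 were measured and 1, Stat2 (108.5 against 235.2, log2 ratio -1.12), a factor of type I interferon signalling, was at least 2-fold lower. Stat3 was the brightest of them.

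Receptor genes that use these kinases were set against all measured genes, of which 55.5% were below 0, 4.01% at least 2-fold lower and 2.85% at least 2-fold higher. Of 6 measured receptor genes that work through JAK1 and JAK3 or STAT6, 5 were below 0, 2 of them by 2-fold or more, and 0 were 2-fold higher, with a median of -0.19. Il4ra, the chain that docks STAT6, had signals of 543 and 1157 (log2 ratio -1.09, and -1.12 at its second measured probe set), while Stat6 itself was at the same level within the probe set error. Il21r stood at 202 and 738 (-1.87, 1 probe set). The IL-2 receptor alpha chain gene Il2ra, the brightest of this list, had signals of 4328 and 5104 (-0.24, and 0.11 at its other probe set).

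Receptor genes that work through JAK2 or TYK2 had a median of -0.27. Of the 13 measured, 9 were below 0, 3 of them by 2-fold or more, and 0 were 2-fold higher. Ifngr2, the interferon gamma receptor chain that carries JAK2, had signals of 130 and 413 (log2 ratio -1.67, and -1.45 at its other probe set). Il6st, the shared signal chain of the IL-6 family, was at -1.92, and Il6ra at -2.24, although the second Il6ra probe set gave -0.18. The brightest, Il10rb, stood at -0.024.

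Other inhibitors of the pathway showed no 2-fold difference. Of 13 phosphatase, PIAS and adaptor genes, 0 were 2-fold apart in either direction and 9 were below 0, with a median of -0.20. Over all measured genes 4.01% were at least 2-fold lower, 2.85% at least 2-fold higher and 55.5% below 0. The brightest was Ptprc, which encodes CD45, at 26661 and 25585 (log2 ratio 0.059, and -0.75 at its other probe set). A list of ubiquitin ligase subunits, among them those that SOCS box proteins recruit, held 6 measured genes with a median of -0.16. Their brightest, Eloc, had a log2 ratio of 0.19, with its 4 probe sets from 0.10 to 1.48.

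Cytokine genes whose products act through the members ranged from under the floor (Il7, 9.5 and 25.1) and just above it (Il15, 40.6 and 42.6) to signals near the top of the array (Il3). Of the 10 measured, 7 were above 0, 5 were at least 2-fold higher and 1 lower, with a median of 1.16. Over all measured genes 2.85% were at least 2-fold higher and 4.01% lower, with a median of -0.048. The count of 5 and the median include Il5, whose difference was set by the sort. Besides Il5, the higher genes were Il9 (log2 ratio 4.08), Il13 (2.63), Il4 (32261 against 9637, 1.74) and Csf2 (32111 against 12066, 1.41). Il2 was higher by less than 2-fold (36010 against 19127.5, 0.91). The brightest, Il3, had a smaller difference (47716 against 35500, 0.43). Il21 was lower at its brighter probe set (-1.28) and stood at 0.44 at the other.

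**Figure D3:**
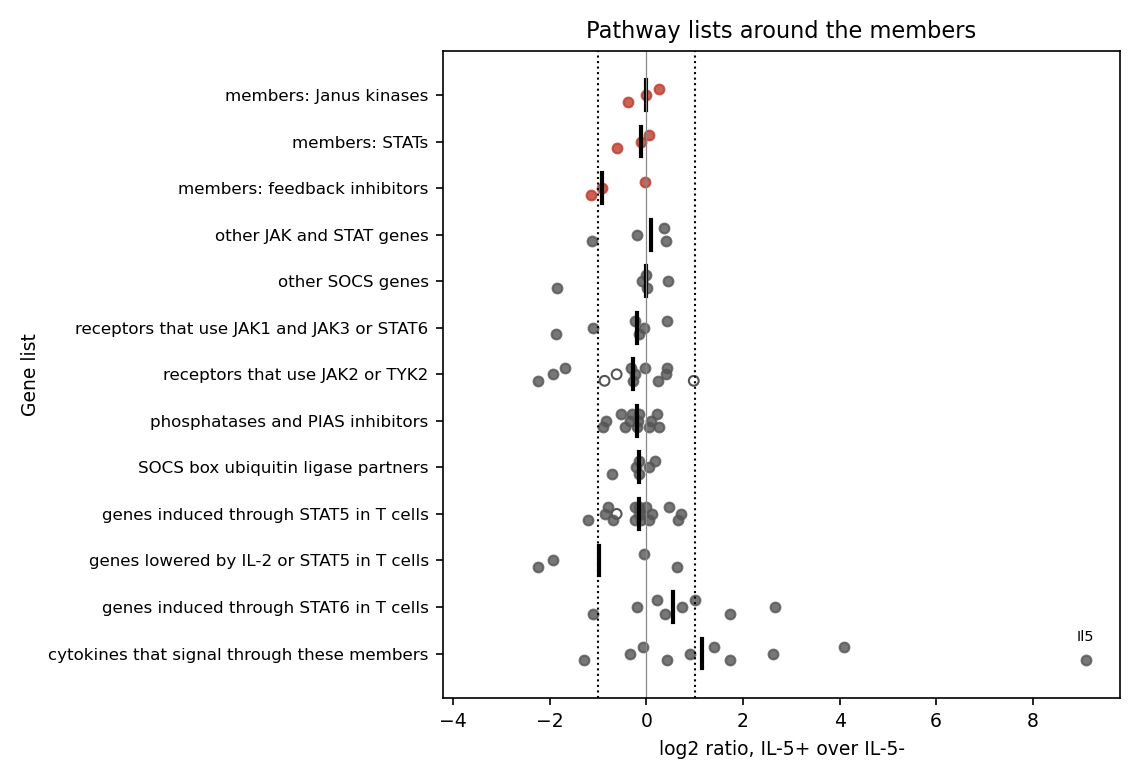
log2 ratio (IL-5+ over IL-5-) of the measured genes in each list, 1 point a gene, with the list's median as a black bar, dotted lines at a 2-fold difference, members in red and open circles for genes above the floor on 1 array only. Genes induced through STAT5 centre on -0.14, and genes induced through STAT6 centre on 0.56.

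Genes known to be induced through STAT5 and through STAT6 were described as separate lists. Of all measured genes, 2.85% were at least 2-fold higher and 4.01% lower. Of 17 genes induced through STAT5 in T cells, 1 was at least 2-fold lower and 0 higher, and the median of -0.14 compares with -0.048 over all genes. The lower gene was Pim2, a survival kinase (1868 against 4331, log2 ratio -1.21). The brightest, the cyclin gene Ccnd2, stood at 27732 and 28000 (-0.014). This list does not include Socs2 or Cish. Of 4 genes known to be lowered by IL-2 or STAT5, 2 were at least 2-fold lower (Il6ra and Il6st), and Il7r, the brightest, was at -0.040. Bcl6, the remaining gene, was higher at both of its probe sets (0.39 and 0.63), and the median of these 4 was -0.98.

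Of 8 genes induced through STAT6, 3 were at least 2-fold higher and 1 lower, with a median of 0.56. Over all measured genes the shares were 2.85% and 4.01%, and the median was -0.048. The higher genes were Il4, the brightest, together with Pparg (942 against 149, log2 ratio 2.66) and Il24 (222 against 110.5, 2.01-fold), and the lower was Il4ra. Il24 only just passed 2-fold, and its IL-5- signal lies under the 60th percentile of 112.8. Il4 was already counted among the cytokine genes and Il4ra among the receptor genes.

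The start regions of the members were searched for letters that these factors are known to bind. RefSeq promoter windows of build GRCm38.p6, from 250 bases before to 50 after the annotated start, were matched for 8 of the 9 members (10 windows), all except Socs2. They were searched on both strands for TTCNNNGAA, the usual STAT5 letters, for TTC and GAA with 4 bases between them, the spacing that STAT6 prefers, and for GAAA followed by any 2 bases and GAAA again, the core of an interferon response element, a motif added after the values had been seen. TTCNNNGAA occurs in 8.30% of all 32851 windows, the STAT6 spacing in 6.95% and the interferon core in 3.44%. Of the 10 member windows, 1 holds TTCNNNGAA, that of Cish, and 1 holds the interferon core, that of Socs1. None holds the STAT6 spacing (0 of 10). A match is a description of the letters and does not show binding.

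The stretches that hold the matches are shown as a description of the sequence. The Cish stretch of 30 bases, chr9:107296654-107296683 on the plus strand, holds both of its TTCNNNGAA matches in capitals, the first beginning at base 1 of the annotated transcript and the second at base 12. Only 0.46% of all windows hold 2 or more such matches. The Socs1 stretch is the 250 bases before its start, chr16:10785537-10785786, read on the minus strand, with a run in capitals that is made of 2 overlapping matches to the interferon core beginning 83 and 77 bases before the start.
Cish: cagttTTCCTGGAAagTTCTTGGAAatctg
Socs1: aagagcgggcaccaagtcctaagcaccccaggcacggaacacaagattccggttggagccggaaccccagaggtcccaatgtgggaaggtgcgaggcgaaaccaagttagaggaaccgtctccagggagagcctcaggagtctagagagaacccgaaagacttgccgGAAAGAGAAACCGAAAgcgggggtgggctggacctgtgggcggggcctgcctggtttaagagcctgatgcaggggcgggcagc
The gene with paired STAT letters, Cish, had nearly equal signals on both arrays, and the gene with paired interferon response letters, Socs1, was 1.89-fold lower in IL-5+ cells. These 2 genes are too few to relate the letters to the ratios, and Socs2, the member with the largest difference, has no window.

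Markers of other cell types were mostly dim on both arrays. The summed signal of the B cell markers was 102.5 in IL-5+ and 223 in IL-5- cells, over 5 genes with a probe set, of which 3 passed the floor in at least 1 fraction. Monocyte and macrophage markers summed to 283 and 336 (4 of 6 above the floor) and genes of dendritic cells and MHC class II to 517 and 744 (5 of 6), with H2-Aa at 51 and 156 but Zbtb46 at 150 and 79.1. In the monocyte list Cd68 likewise ran the other way (109 and 75.8). These 3 sums were lower in IL-5+ cells, but so was that of the CD4 T cell markers (51160 and 62910). The B cell difference came mostly from genes under the floor in IL-5+ cells. Ms4a1, the only B cell marker above the floor on both arrays, had 60.7 and 62.1. Whether other cells had a part in the differences of Socs1 and Socs2 was not tested. No marker of the B cell, monocyte and dendritic cell lists was at 0, but neither was any signal on the arrays (lowest 0.1). Their lowest signal was 2.4, that of Flt3 in IL-5+ cells. It lies under the floor of 36.3 and does not by itself show expression. NK cell markers summed to 830 and 1159 (2 of 3), most of it from Nkg7, which effector T cells also express. CD8 T cell markers summed to 347 and 245 (2 of 2), those of eosinophils, basophils and mast cells to 71.2 and 140 (1 of 7), and erythroid markers to 39.3 and 22.1 (1 of 2). In such sorted populations, fewer cells that express a gene and less RNA per cell cannot be told apart.

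**Figure D4:**
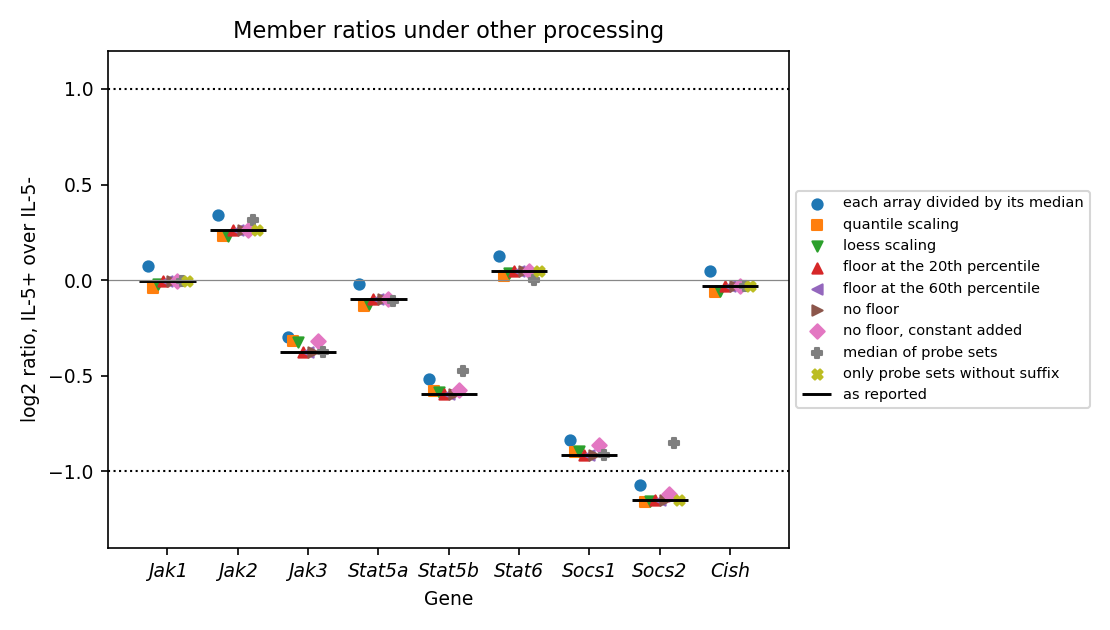
log2 ratio (IL-5+ over IL-5-) of each member as reported (black bars) and under 9 other ways of scaling, setting the floor or choosing probe sets (symbols), with dotted lines at a 2-fold difference. Socs2 stays below the lower line except at the median of its probe sets (-0.85), Socs1 stays between -0.92 and -0.84, and Jak1 and Cish lie on both sides of 0.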

How the data were processed

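The deposited values are linear signal intensities, 1 for each probe set on each array. The submitters' processing notes name GCOS, Affymetrix's scanner software, as their source, but neither a version nor the summary algorithm or scaling. The table holds 45037 probe sets and no detection calls. Mean signals without the lowest and highest 2% were 496 on both arrays, so ratios are relative to the rest of each array. Of the probe sets, 34945 had 1 gene symbol in the platform annotation, 932 several and 9160 none listed. The symbols of all 9 members matched RefSeq through their entrez identifiers.

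The members and the 10 further gene lists (85 genes, of which 82 had a named probe set) were chosen with earlier results of these data known; another list is not reported here. Members are described at every probe set. Other genes are named where they were at least 2-fold apart or the brightest of their list. Socs4, Socs6, Socs7, Tyk2, Bcl6, Il2, Il7, Il15 and the markers were named after their values were seen. No p-value was computed, since precision is limited by the number of arrays. The counting was tested on simulated arrays. Alternatives were 3 scalings, 4 treatments of dim signals (floors at the 20th and 60th percentile, none, and 64 added), 2 choices of probe sets and 2 thresholds. Python 3.11.15, numpy 2.4.6, pandas 2.3.3, statsmodels 0.14.6 and matplotlib 3.10.9 were used.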

Additional observations from a re-analysis of the deposited data

How the results depend on the processing

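Of 77 member ratios recomputed under the alternatives, 76 moved by less than the SD between probe sets and 1 by more: Socs2 stood at -0.85 with the median of its probe sets, 4 of which are dim. Many of the 76 could not move. The brightest probe set of each member lies above every floor, so another floor or none returned the same ratio. A gene with 1 probe set also kept its ratio with the median of probe sets. A gene whose brightest has no suffix kept it when probe sets with a suffix were left out. With the median, 0 members were at least 2-fold lower, and without suffixed probe sets 1 was. The count was 3 at a 1.5-fold threshold (Socs1, Socs2 and Stat5b) and 0 at 3-fold. Division by the array median put Jak1 (0.075) and Cish (0.047) above 0. Socs1, Jak3, Stat5a and Stat5b have only probe sets with the suffix _a_at, so leaving out such probe sets gave no value for them. Over all genes, higher and lower counts were 374 and 526 as reported, 435 and 443 after division by the array median (where the median of all genes was 0.026), 412 and 463 with quantile scaling and 405 and 469 with loess. They were 1325 and 1572 when the floor was the 20th percentile, 183 and 226 when it was the 60th, 2057 and 2311 with none, 186 and 219 with 64 added, 1035 and 1560 at 1.5-fold and 91 and 143 at 3-fold. The medians of the SOCS genes outside the members and of the ubiquitin ligase genes changed sign in 3 and 2 of 9 alternatives. The other 8 list medians changed sign in none. No paired analysis was possible because each group has 1 array.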

Other observations

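Genes that lie next to a member on the chromosome, by the order of protein-coding genes in RefSeq, stood between -0.54 and 0.48 where measured, leaving aside the members themselves and Hemk1. Clec16a and Tnp2 on either side of Socs1 had log2 ratios of 0.17 and -0.46, Cradd and Mrpl42 beside Socs2 had -0.078 and -0.22, and Rcl1 and Insl6 beside Jak2 had 0.11 and -0.24. Ak4 beside Jak1 had -0.54 and Ghdc beside Stat5b 0.48. The only neighbour at least 2-fold apart was Hemk1, a methyltransferase gene beside Cish on chromosome 9. Its probe sets had signals of 1492 against 6532 and 737 against 2900 on the IL-5+ and IL-5- arrays, log2 ratios of -2.13 and -1.98, while Cish stood at -0.031 and Mapkapk3, on its other side, at -0.047. These neighbours are named after their values were seen, and no explanation was tested.

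Among the other inhibitors, Dusp2 (3275 against 6117, log2 ratio -0.90) and Cblb (2443 against 4345, -0.83) came close to the difference of Socs1 without reaching 2-fold. All 3 measured Cblb probe sets were lower in IL-5+ cells, from -0.98 to -0.61. Cblb encodes a ubiquitin ligase that restrains T cell activation, and Dusp2 a nuclear phosphatase of activated T cells. Both are named after their values were seen.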
